A study of Mus musculus with 8 samples.

Results

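Metabotropic glutamate receptors and the Homer scaffolds that tether them were examined in the cerebellum of 2 inbred mouse strains, through 9 genes: Grm2, Grm3, Grm4, Grm5, Grm7, Grm8, Homer1, Homer2 and Homer3. Members were chosen by gene symbol, taking every probe set annotated to 1 of these symbols alone. They made up 9 of the 18193 genes so annotated, with 6 probe sets among those of the Affymetrix 430A array and 13 among those of 430B. A probe set annotated to Grm2 together with another gene was left out. Grm8 and Homer3 were represented on 430A alone, Grm2, Grm3, Grm4, Grm5 and Grm7 on 430B alone, and Homer1 and Homer2 on both. The mice were alcohol-naive males, 2 Inbred Long Sleep (ILS, replicates 48 and 51) and 2 Inbred Short Sleep (ISS, replicates 55 and 56). The names refer to how long mice of each line sleep after ethanol, and the series compares the strains at baseline, with no ethanol given. RNA of each mouse went to 1 array of each type, and the labels give no age.

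Metabotropic glutamate receptors are G protein-coupled receptors that adjust synaptic strength. Group I receptors, among them Grm5, couple through Gq to phospholipase C and release calcium from internal stores. Group II (Grm2 and Grm3) and group III (Grm4, Grm7 and Grm8) couple through Gi and Go, lower cyclic AMP and mostly restrain transmitter release. Homer proteins bind group I receptors, inositol trisphosphate receptors and Shank scaffolds, and their long forms join these partners through a coiled coil. In the cerebellum Grm4 is known from the parallel fibre terminals of granule cells, Grm2 from Golgi cells and Homer3 from Purkinje cells.

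The unit throughout is the MAS5 signal, a linear intensity per probe set. Fold changes are on the log2 scale, ILS minus ISS, so a positive value means a higher signal in ILS, and the small number of mice limits their precision. The tissue carried strong cerebellar signals on every 430A array, with the Purkinje cell gene Pcp2 at 5489.1 to 9009.2 and the granule cell receptor subunit Gabra6 at 4160.8 to 6735.3. Of the 19 markers of brainstem, midbrain and forebrain neurons, 4 were measured on 430A and 5 on 430B. The 430A sums were 3519 and 4219 in ILS against 3359 and 2641 in ISS. Those on 430B overlapped, at 3561 and 4076 in ILS against 4218 and 3467 in ISS. On 430A the oxytocin gene Oxt read 926 and 859.6 in ILS against 481.9 and 357.6 in ISS. The largest term there, Slc17a6, overlapped, at 1767.2 and 2245.4 in ILS against 1994.6 and 1484.2 in ISS. The control for the 3' end of 18S ribosomal RNA ran at 537.8 and 801.1 in ILS against 147.1 and 141.9 in ISS on 430A, and was also higher in both ILS mice on 430B. Ratios of 3' to 5' signal for the actin and Gapdh controls overlapped between strains on both arrays. The part of the 18S signal in the results below was not tested.

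No member was called different between the strains. Of the 19 member probe sets, 13 reached the median of their chip in mean log2 signal and were tested, and 6 did not. Grm8 was the one gene with no tested probe set. By limma, 0 of 2 tested on 430A and 0 of 11 on 430B passed an adjusted p of 0.05, where 2.93% of all tested probe sets passed on 430A and 0.48% on 430B. At an unadjusted p of 0.05 the counts were 1 of 2 (Homer3) and 0 of 11, against 21.8% and 9.02% of all tested probe sets. The 4 values split by strain without overlap at 1 of 2 member probe sets on 430A and 4 of 11 on 430B, against 54.3% and 38.9% of all tested. With no filter, 0 of the 19 member probe sets were called by limma and 1 passed unadjusted, where 0.601% of all probe sets on 430A and 0.0577% on 430B were called. With 2 mice against 2, an exact permutation test of 1 probe set cannot go below p = 0.333, so the calls rest on limma's spread shared across probe sets.

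The median log2 fold change of the 11 tested on 430B was 0.02, beside -0.001 over all tested there, with 7 above 0 and 4 below. The values at Homer2 and Homer3 on 430A were -0.23 and -0.51, beside a median of -0.011. The 95% interval lay inside a 2-fold change in either direction at 10 of the 13 tested probe sets, the exceptions being Grm2 and 1 probe set each of Grm5 and Grm7. In whole cerebellum, fewer cells of a type and less RNA per cell cannot be told apart.

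**Figure D1:**
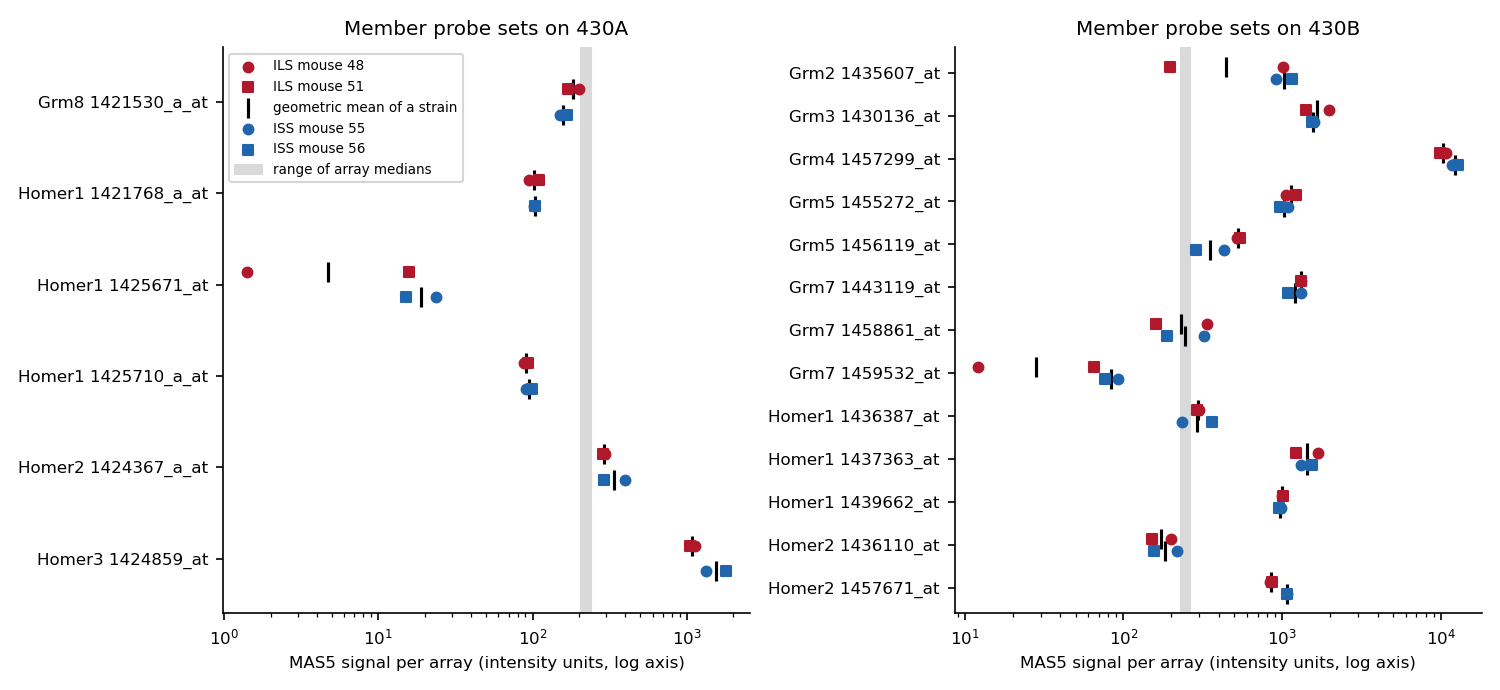
MAS5 signal (log axis, intensity units) of each member probe set on each array, 430A left and 430B right, with ILS in red and ISS in blue, 1 symbol per mouse, a black tick at the geometric mean of each strain and the range of array medians in grey. Grm2 in ILS mouse 51 stands apart at 196.5 from the other 3 mice at 913.4 to 1147.3, and both ISS mice lie above both ILS mice at Homer3.

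Grm5, the group I receptor among the members, had 2 probe sets on 430B, and both leaned towards ILS without passing the test. At 1456119_at the signals were 516.1 and 544.0 in ILS and 432.8 and 284.9 in ISS. Both ILS mice lay above both ISS mice, and the ISS mice differed from each other by 1.52-fold. The log2 fold change was 0.59 with a 95% interval of -0.02 to 1.20 (limma adjusted p = 0.57). At 1455272_at the signals were 1055.6 and 1217.2 in ILS and 1089.0 and 973.5 in ISS. These values overlapped, and the log2 fold change was 0.14 (-0.25 to 0.53, limma adjusted p = 0.883). With 1 mouse left out the first estimate ran from 0.29 (without ISS replicate 56) to 0.90 (without ISS replicate 55), and the second from 0.04 (without ILS replicate 51) to 0.24 (without ILS replicate 48), with no call.

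Grm2, a group II receptor that acts as a presynaptic brake, gave the widest spread among the tested members. Its signals at 1435607_at were 1004.5 and 196.5 in ILS and 913.4 and 1147.3 in ISS. ILS replicate 48 lay among the ISS values, and ILS replicate 51 was low, 5.11-fold below its strain mate. A gap between the ILS mice at least this wide occurred at 11 of the 11256 tested probe sets on 430B, or 0.0977%. The log2 fold change was -1.20, with an interval of -2.52 to 0.11 (limma adjusted p = 0.596).

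That estimate depended on which ILS mouse was kept. Without ILS replicate 51 it was -0.03 (limma adjusted p = 0.979), and without ILS replicate 48 it was -2.38 (limma adjusted p = 0.0385), where 1 ILS array stands against 2. ILS replicate 48 was also the one 430B array run on fluidics station 1, so that a station term gives the same estimate of -2.38. On 430B the marker list of Golgi cells, unipolar brush cells and interneurons summed to 26110 in ILS replicate 51 and 28990 in ILS replicate 48. It summed to 28670 in ISS replicate 55 and 26150 in ISS replicate 56. None of its 6 measured members on 430B was called. Its largest term on 430B was Plcb4, a gene also counted in the Gq pathway, at 9754.3 in ILS replicate 51 and 9281.4 to 10551.7 in the others. Whether Plcb4 marks these cells alone was not tested. Slc6a5 read 5064.8 in ILS replicate 51, inside the 3678.7 to 5429.9 of the other mice, and Nxph1 was highest there. Lgi2, Nos1 and Gad2 were lowest in ILS replicate 51, Lgi2 only just, at 3050.2 beside 3063.6 in ILS replicate 48. Granule cell markers (46190) and Bergmann glia and astrocyte markers (33860) also summed lowest in ILS replicate 51 on 430B, the other mice lying at 51860 to 59560 and 37610 to 42330. On 430A these 2 lists were again lowest in ILS replicate 51, at 25940 and 37890. The list of Golgi cells, unipolar brush cells and interneurons was not, at 11790 there and 11130 in ILS replicate 48. Its ISS sums on 430A were 12260 and 14180. The part of these lists in the Grm2 value was not tested, and 430A gave no further reading of Grm2.

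Grm3, the other group II receptor, known from glia as well as neurons, differed little. Its signals at 1430136_at were 1968.6 and 1409.5 in ILS and 1579.5 and 1533.1 in ISS. The ILS mice lay on either side of the ISS mice, and the log2 fold change was 0.10 (-0.32 to 0.52, limma adjusted p = 0.925). Its sign turned, to -0.14, without ILS replicate 48.

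Grm4, the group III receptor of parallel fibre terminals, was bright on every 430B array. Its signals at 1457299_at were 10778.4 and 9918.6 in ILS and 11693.1 and 12819.4 in ISS. Both ILS mice lay below both ISS mice, with a narrow gap. The means were 10350 ± 608 and 12260 ± 796.4 (SD, n = 2), a log2 fold change of -0.24 with an interval of -0.54 to 0.05 (limma adjusted p = 0.65). Leaving out any 1 mouse kept the estimate between -0.31 and -0.18, with no call. The granule cell marker list had 6 measured members on 430B, of which 1 was called, lower in ILS (0.284% of all tested): Slc17a7, the vesicular glutamate transporter of these terminals, at -1.14 (limma adjusted p = 0.0204), a call lost with any 1 mouse other than ISS replicate 55 left out. The list summed to 54020 and 46190 in the ILS mice and 51860 and 59560 in the ISS mice, an overlapping range. On 430A none of its 10 measured members was called, while 9 stood below 0 and 2 passed an unadjusted p of 0.05 (51.7% and 21.8% of all tested there), with a median of -0.15 beside -0.011. The sums on 430A did not overlap, by a narrow gap, at 29320 and 25940 in ILS against 29870 and 32240 in ISS. Of all single probe sets tested there, 54.3% did not overlap. The split of the sums rests on Car2, at 5756.5 and 7178.6 in ILS against 7615.6 and 6947.9 in ISS. Taking Car2 out leaves the sums overlapping, and whether Car2 marks granule cells alone was not tested. The part of this list in the Grm4 values was not tested.

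Grm7, a group III receptor of the presynaptic active zone with low affinity for glutamate, had 3 probe sets on 430B, of which 2 were tested. Signals at 1443119_at were 1312.8 and 1306.2 in ILS and 1319.5 and 1092.9 in ISS. Only ISS replicate 56 stood lower, and the log2 fold change was 0.12 (-0.26 to 0.50, limma adjusted p = 0.893). At 1458861_at the signals were 334.1 and 160.7 in ILS and 320.8 and 187.8 in ISS, 1 high and 1 low mouse in each strain. That gave -0.08 with a wide interval of -1.07 to 0.90 (limma adjusted p = 0.977). The dim probe set 1459532_at read 12.2 and 65.0 in ILS and 92.2 and 76.5 in ISS, below the median of every array. It was not tested, and no fold is given with both strains dim.

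Grm8, the remaining group III receptor, was measured once, at 1421530_a_at on 430A, and also lay below the median of every array. Its signals were 199.0 and 169.5 in ILS and 150.2 and 166.8 in ISS. The ILS mice lay just above the ISS mice, and with both strains dim no fold is given.

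Homer1, whose short form is induced by neuronal activity and uncouples the long forms, had the most probe sets, 6 in all. The 3 on 430B gave log2 fold changes near 0. Probe set 1439662_at read 996.1 and 1012.1 in ILS against 977.5 and 948.8 in ISS, and 1437363_at read 1683.9 and 1214.0 against 1311.4 and 1546.2. The first separated the strains by a narrow margin and the second did not. Probe set 1436387_at read 297.1 and 292.4 in ILS, inside the ISS values of 234.4 and 360.5. The log2 fold changes of the 3 were 0.06 (95% interval -0.32 to 0.44), 0.01 (-0.43 to 0.44) and 0.02 (-0.69 to 0.73), with limma adjusted p of 0.954, 0.993 and 0.991.

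The 3 Homer1 probe sets on 430A lay below the median of every array and were not tested. Signals were 95.3 and 109.6 in ILS and 101.9 and 104.3 in ISS at 1421768_a_at. At 1425710_a_at they were 88.4 and 93.5 in ILS and 90.9 and 99.3 in ISS. Both sets of values overlapped between strains. The dimmest, 1425671_at, ran from 1.4 to 23.6 over the 4 arrays. Which Homer1 form each probe set detects was not analysed here.

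Homer2, a scaffold with the same receptor-binding domain, was lower in ILS at both of its tested probe sets, and neither was called. At 1457671_at on 430B the signals were 832.5 and 866.0 in ILS and 1066.6 and 1071.2 in ISS. The mice of each strain lay close together and the strains did not overlap. The means were 849.2 ± 23.69 and 1069 ± 3.253 (SD, n = 2), a log2 fold change of -0.33 (-0.71 to 0.05, limma adjusted p = 0.63). With 1 mouse left out the estimate ran from -0.36 to -0.30, with no call. At 1424367_a_at on 430A the signals were 295.5 and 284.6 in ILS and 395.1 and 291.8 in ISS. ISS replicate 56 lay within the ILS values, and the log2 fold change was -0.23 (-0.67 to 0.21, limma adjusted p = 0.516). It was -0.01 without ISS replicate 55. The third probe set, 1436110_at, was dim in both strains, at 198.8 and 151.5 in ILS and 217.4 and 155.5 in ISS.

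Homer3, the Homer protein of Purkinje cells, had the smallest p among the members. Its signals at 1424859_at on 430A were 1125.5 and 1048.6 in ILS and 1327.2 and 1802.5 in ISS. Both ISS mice lay above both ILS mice, with ISS replicate 56 well above ISS replicate 55. The means were 1087 ± 54.38 and 1565 ± 336.1 (SD, n = 2). The log2 fold change was -0.51, a 1.42-fold lower signal in ILS, with an interval of -0.89 to -0.13 and an unadjusted p of 0.0142, which over the 11313 tested probe sets gave a limma adjusted p of 0.128.

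The Homer3 estimate followed ISS replicate 56, at -0.29 without it and -0.73 (limma adjusted p = 0.0344) without ISS replicate 55. It also passed when arrays were scaled to equal medians, at -0.67 (limma adjusted p = 0.028). That scaling moved the median log2 fold change of all tested 430A probe sets from -0.011 to -0.169. Relative to the median of the chip, Homer3 stood at -0.50 under both scalings. The 430A arrays of ILS used station 2 and those of ISS station 1, so station and strain cannot be told apart for Homer3 or for any other result on 430A.

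Most Purkinje cell markers also stood lower in ILS on 430A. Of 13 measured, 1 was called, lower in ILS: Ppp1r17, a phosphatase inhibitor of Purkinje cells, at -0.90 (limma adjusted p = 0.0225), a call that ended without ISS replicate 56. In all 10 of the 13 stood below 0, with a median of -0.256. Of all tested probe sets, 51.7% stood below 0 and 1.33% were called lower, with a median of -0.011. At an unadjusted limma p under 0.05, 6 of the 13 were lower in ILS and 0 higher, against 21.8% of all tested in either direction. The summed signal of the list was 50170 and 45820 in the ILS mice and 50560 and 61780 in the ISS mice. These sums did not overlap, by a narrow gap, where 54.3% of single probe sets tested there did not overlap. The sum was highest in ISS replicate 56, as was Homer3. So were the 430A sums of granule cell markers (32240), Golgi, unipolar brush and interneuron markers (14180), and Bergmann glia and astrocyte markers (41200). Those of oligodendrocyte (31340), microglia (4635) and brainstem, midbrain and forebrain neuron markers (2641) were lowest in that mouse. On 430B, 2 Purkinje markers were measured, and Car8 was called there in the other direction, at 1.51 (limma adjusted p = 0.0137), which ended without ILS replicate 48. The part of Purkinje cell RNA in the Homer3 values was not tested.

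**Figure D2:**
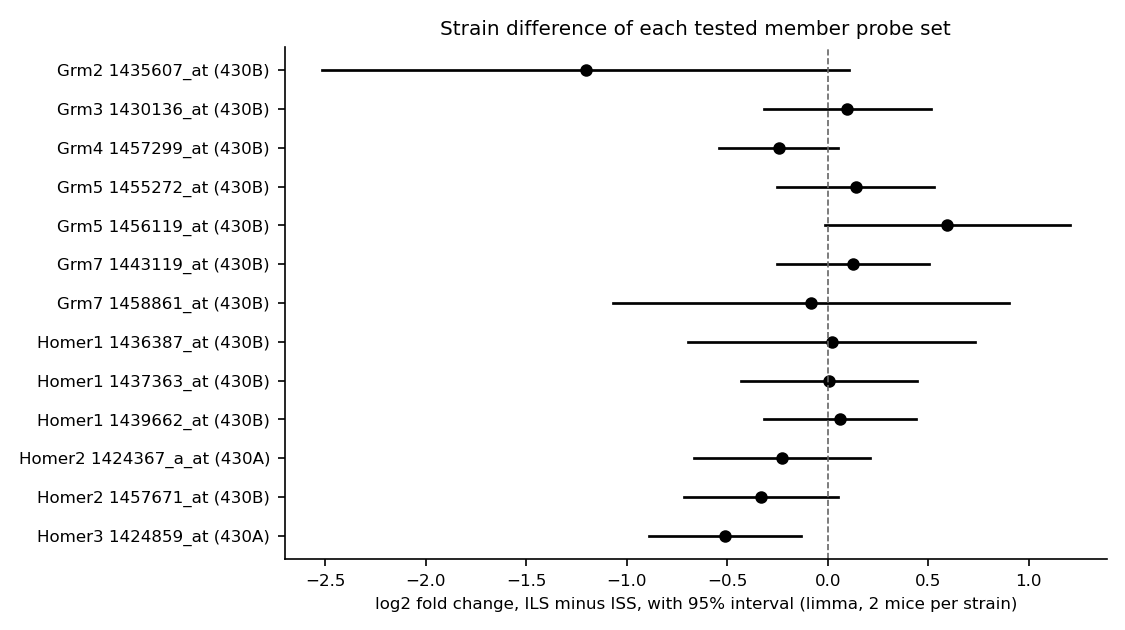
Log2 fold change, ILS minus ISS, of the 13 tested member probe sets (points) with its 95% interval from limma (lines, 2 mice per strain). Homer3 is the one member whose interval, -0.89 to -0.13, leaves out 0, and Grm2 has the widest interval, -2.52 to 0.11.

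**Figure D3:**
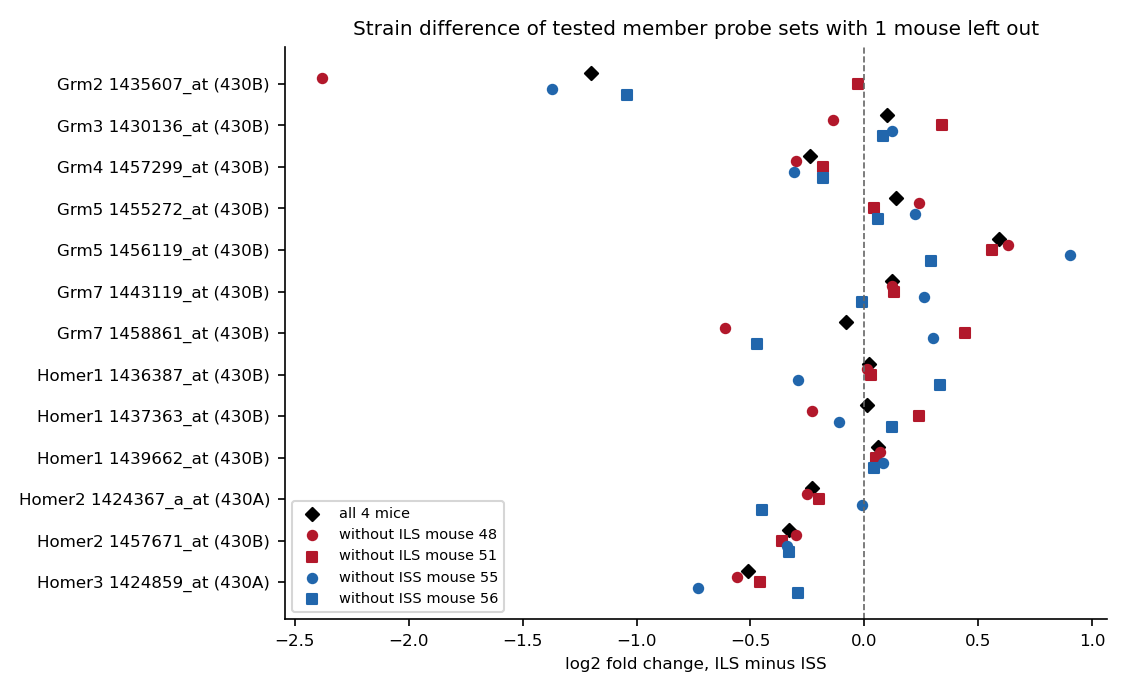
Log2 fold change, ILS minus ISS, of the 13 tested member probe sets with all 4 mice (black diamonds) and with each mouse left out in turn (red for an ILS mouse, blue for an ISS mouse). Grm2 runs from -2.38 to -0.03 according to which ILS mouse is kept, while Homer2 at 1457671_at stays between -0.36 and -0.30.

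The genes around the receptors were read at the brightest tested probe set of each. Genes of the Gq pathway, which group I receptors use, held no called member: 0 of 13 on 430A, with a median of 0.102, and 0 of 8 on 430B, with a median of -0.106. At an unadjusted p of 0.05 by limma there were 3 of 13 on 430A and 1 of 8 on 430B, near the 21.8% and 9.02% of all tested probe sets. Smallest in p on 430A were Cnr1, the presynaptic cannabinoid receptor, at -0.52 (limma adjusted p = 0.0921), and the phospholipase C gene Plcb4 at -0.41 (0.149). On 430B they were Plcb1, at 0.38 (limma adjusted p = 0.417), and the protein kinase C gene Prkca at -0.36 (0.599).

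Of the Gi and Go pathway, which serves the group II and III receptors, 2 of 20 measured genes on 430A were called lower in ILS and 0 higher, against 1.33% and 1.61% of all tested probe sets. The median of the list was -0.034. Gnb1, a G protein beta subunit, read 812.7 and 736.5 in ILS and 5027.6 and 5380.8 in ISS, well apart, at -2.75 (limma adjusted p = 5.2e-05). Kcnj9, a potassium channel subunit opened by G protein beta and gamma subunits, read 348.2 and 298.2 in ILS and 555.1 and 626.5 in ISS, at -0.87 (limma adjusted p = 0.0334). The Kcnj9 call was lost when any 1 mouse other than ISS replicate 55 was left out, while both tested probe sets of Gnb1 were called in every setting tried. On 430B 0 of 10 were called and 1 passed unadjusted, Kcnj9, which read 1352.3 and 828.4 in ILS and 84.2 and 734.1 in ISS. Only ISS replicate 55 was far from the rest, and the log2 fold change of 2.09 (limma adjusted p = 0.426) was 0.53 without that mouse and 3.65 (0.000155) without ISS replicate 56. Next in p there was Prkar2b, a regulatory subunit of the cyclic AMP-dependent kinase, at 0.33 (limma adjusted p = 0.755).

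Among synaptic scaffold and adaptor proteins, 1 of 15 measured genes on 430A was called, lower in ILS (1.33% of all tested), with a list median of -0.144. It was Pclo, a scaffold of the presynaptic active zone rather than a receptor or Homer partner, at -0.69 (limma adjusted p = 0.0472), a call that ended without ILS replicate 51 or ISS replicate 56. On 430B 0 of 10 were called and 1 passed unadjusted, Pclo at 0.40 (limma adjusted p = 0.453), with Caskin1, an adaptor, next at -0.18 (0.773). A dimmer probe set of the ubiquitin ligase Siah1a, which binds group I receptors, was called lower on 430A at -0.81, while its brightest stood at -0.14. That call was lost with any 1 mouse other than ILS replicate 51 left out. Shank3, which Homer proteins bind directly, is named here after its values were seen. It read 1215.1 and 1411.5 in ILS and 1784.4 and 2267.9 in ISS, without overlap (54.3% of all tested), at -0.62 (limma adjusted p = 0.071). Shank1, measured on 430B, stood at 0.04 (limma adjusted p = 0.988).

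Of the genes of glutamate transport and synthesis, 0 of 13 measured on 430A were called and 2 passed unadjusted. Those were Glul, the glutamine synthetase of glia, at 0.43 (limma adjusted p = 0.0681), and the Purkinje cell transporter Slc1a6 at -0.46 (0.122). On 430B 1 of 6 was called, lower in ILS, against 0.284% lower and 0.195% higher of all tested: Slc17a7, at 3313.2 and 2640.7 in ILS against 5857.7 and 7216.2 in ISS. The loss of that call with single mice is given above. List medians were 0.067 on 430A and -0.125 on 430B.

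**Figure D4:**
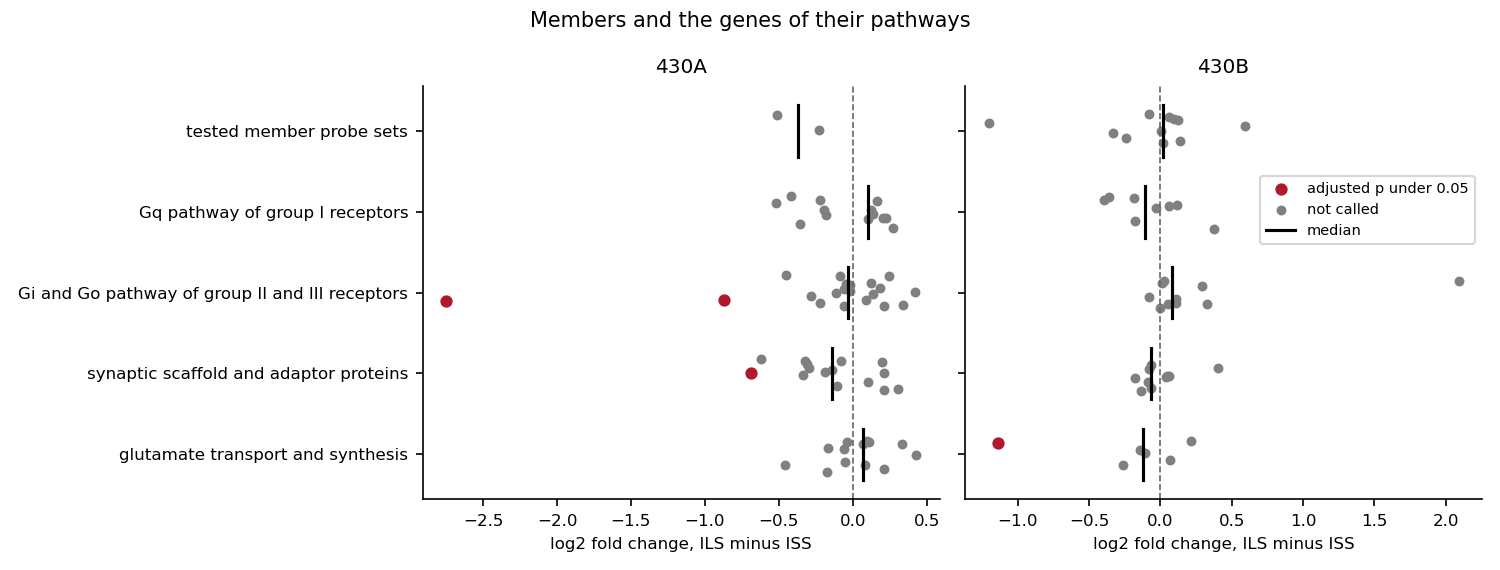
Log2 fold change, ILS minus ISS, of the tested member probe sets (top row) and of the measured genes of 4 pathway lists at their brightest tested probe set, 430A left and 430B right, with red for an adjusted p under 0.05 and a black bar at each median. All 4 red points lie below 0 (Gnb1, Kcnj9 and Pclo on 430A and Slc17a7 on 430B), and no member is red.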

How the data were processed

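Cerebellar RNA of 4 mice was measured on 8 Affymetrix arrays. The authors deposited 1 linear intensity per probe set and array. Per the submitters' processing notes these are MAS5 signals, of a version not given in the sources used here. Each deposited array had a 2% trimmed mean of 500, so no further scaling was needed. The experiment files, of unit other, gave chip type, station and scan order per the file headers. Each chip was scanned within 1 day, the ILS arrays first on 430A and the ISS arrays first on 430B. Scan order and strain therefore cannot be told apart on either chip.

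Signals were log2 transformed, 64 control probe sets per chip were left out, and probe sets with a mean log2 signal at or above the chip median were tested (11313 on 430A and 11256 on 430B). The strains were compared on each chip separately with limma 3.58.1 (R 4.3.3, eBayes with an intensity trend, 2 residual degrees of freedom), two-sided, with Benjamini-Hochberg adjustment over the chip and a threshold of 0.05. A strain was dim where both its values lay below their array medians. Gene symbols came from the platform annotation, and all 9 were found in the RefSeq gene table. The sources name no genome build, so no coordinates are given, and probe sequences were not analysed here. Members and lists were chosen with earlier results of these data known. Every member probe set is reported. Of each pathway list up to 4 called genes are named or else the 2 smallest in p, and of each marker list up to 3 called genes. Other list genes are named outside this rule, with their values known. These are Shank1, Shank3, Siah1a, Car2, Pcp2, Gabra6, Slc17a6 and the genes given from the list of Golgi cells, unipolar brush cells and interneurons. The main limma fit was tested on simulated data with planted changes of 2 on the log2 scale, larger than any tested member's main estimate. The alternative settings were not simulated. Alternatives covered scaling, normalization, low values, the filter, the variance model, the adjustment, a 2-fold minimum, each mouse and the station.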

Additional observations from a re-analysis of the deposited data

How the results depend on the processing

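The 13 tested member probe sets gave 215 comparisons with an alternative setting, of which 198 kept their direction and their side of the threshold, 13 turned direction without a call and 4 became calls. These are not separate checks. Settings of the filter, variance model, adjustment and 2-fold minimum cannot change a log2 fold change, and a 2-fold minimum cannot add a call. The setting without rescaling repeats the main one, and the station block repeats the estimates without ILS replicate 48. The count of called members on 430A was 1 rather than 0 with equal medians (Homer3), and ran from 0 to 1 with 1 mouse left out. On 430B it ran from 0 to 1 with 1 mouse left out and was 1 with the station as a block (Grm2 at -2.38, limma adjusted p = 0.0347), which fits ILS replicate 48 exactly. Of values that turned direction, Homer1 at 1436387_at stood at -0.03 with equal medians, -0.01 with quantile and -0.02 with cyclic loess normalization, and from -0.29 to 0.33 with 1 mouse left out. Homer1 at 1437363_at stood at -0.04 with equal medians, -0.23 with the station block, and from -0.23 to 0.24 with 1 mouse left out. Grm3 stood at -0.14 with the station block. With 1 mouse left out Grm3 ran from -0.14 to 0.34, Grm7 from -0.61 to 0.44 at 1458861_at and from -0.01 to 0.26 at 1443119_at. In the settings that leave out a mouse, the single array left in a strain was taken to vary as the rest do. The cause of these changes was not tested.

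Calls over the whole chip, 332 on 430A and 54 on 430B, moved by over 1.5 times in several settings. On 430A they were 1158 with equal medians, with 19.3% of calls higher in ILS against 54.8%, 136 with no filter, 163 with the stricter one, 208 with both chips adjusted together, 119 with the 2-fold minimum, and from 115 to 626 with 1 mouse left out. On 430B they were 13 with no filter, 4 without the trend, 94 with joint adjustment, 24 with the station block, and from 25 to 67 with 1 mouse left out. Without ISS replicate 55, 62.7% of the 430B calls were higher in ILS, against 40.7%. Of the other genes named as called, Kcnj9, Pclo, Siah1a, Slc17a7, Car8, C1qc, Laptm5, Cldn11 and Gfap were not called with no filter, Pclo, Slc17a7, Car8, Cldn11 and Gfap without the trend, Pclo, Siah1a, C1qc and Cldn11 with joint adjustment, Pclo and C1qc with quantile normalization, Pclo with cyclic loess normalization, Kcnj9, Pclo, Siah1a, Ppp1r17, Laptm5 and Cldn11 by the 2-fold minimum, Slc17a7 with equal medians, and Slc17a7, Car8 and Gfap with the station block. The stricter filter left the called probe sets of Kcnj9, Siah1a, C1qb, C1qc, Laptm5, Oxt and Gfap untested. No paired analysis was possible because the mice of the strains carry different numbers. The arrays limit what can be seen: at dim probe sets such as those of Grm8 and of Homer1 on 430A, strain differences are not measured well.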

Other observations

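The remaining marker lists of the cells in a cerebellar dissection give the setting in which the members were read. Microglia markers had 4 of 9 measured genes called higher in ILS on 430A and none lower, against 1.61% of all tested probe sets, with a median log2 fold change of 0.49 beside -0.011 over all tested. The complement gene C1qb was at 1.05, C1qc at 1.00 and the lysosomal membrane gene Laptm5 at 0.88 (limma adjusted p = 0.0168, 0.0369 and 0.0354). These calls ended without ILS replicate 48 for C1qb, without ILS replicate 51 or ISS replicate 56 for C1qc, and without any 1 of those 3 mice for Laptm5. On 430B the 1 measured microglia marker, Laptm5, was not called. Oligodendrocyte markers had 1 of 10 called higher on 430A (1.61% of all tested), the tight junction gene Cldn11 at 0.78 (limma adjusted p = 0.0367), which ended without ILS replicate 48 or ISS replicate 56, and 0 of 2 on 430B. Markers of brainstem, midbrain and forebrain neurons had 1 of 4 called higher on 430A, against the same share, the oxytocin gene Oxt at 1.10 (limma adjusted p = 0.022), which ended without ILS replicate 48, and 0 of 5 on 430B.

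Bergmann glia and astrocyte markers had 0 of 13 called on 430A, with 5 at an unadjusted limma p under 0.05 (2.93% and 21.8% of all tested), and 1 of 5 on 430B (0.48% of all tested), where the filament gene Gfap was lower in ILS at -2.37 (limma adjusted p = 0.00421), a call that ended with the station block. The list of Golgi cells, unipolar brush cells and interneurons had 0 of 10 called on 430A, with 2 at an unadjusted limma p under 0.05, near the share of all tested. Every 430A value given here is confounded with fluidics station, as stated for Homer3, and the strain differences on both chips are confounded with scan order.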
